A study of Mus musculus with 8 samples.

Results

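The nuclear-encoded subunits of the mitochondrial respiratory chain and ATP synthase were followed as a gene module in maps of a histone mark. Members were the protein-coding genes whose symbols begin with Ndufa, Ndufb, Ndufc, Ndufs, Ndufv, Uqcr, Atp5, Cox4, Cox5, Cox6, Cox7 or Cox8, together with Sdha, Sdhb, Sdhc, Sdhd, Cyc1 and Cycs. This rule, which uses no measured value, found 98 of the 21887 protein-coding genes on chromosomes 1 to 19, X and Y. Of these, 87 encode subunits or cytochrome c, and 11 share only the prefix: 8 complex I assembly factors (Ndufaf genes), the supercomplex factor Cox7a2l, and Ndufb4b and Ndufb4c, which are separate genes with Ndufb4 names.

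The measured mark was lactylation of histone H4 at lysine 12 (H4K12la), mapped by CUT&Tag, in which an antibody tethers a transposase to marked chromatin so that the DNA beside it is cut and sequenced. There were 8 libraries in 4 groups of 2, made from total brain cells or from microglia, each of WT or 5XFAD mice. All came from dissociated brain without cerebellum of perfused animals, total cells after removal of myelin and debris, and microglia after a further capture with CD11b beads, which also hold other myeloid cells. 5XFAD mice model the amyloid pathology of Alzheimer disease with mutated human transgenes driven by a neuronal Thy1 promoter. Age, sex, strain background and whether a group's libraries stem from different animals or from pools are not stated in the sources used here, so that p-values measure only the spread between these libraries. The mice are called by genotype, and each library by its group and number (WT 1, WT 2).

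The respiratory chain passes electrons from NADH (complex I) or succinate (complex II) through complex III and cytochrome c to oxygen at complex IV, and ATP synthase uses the resulting proton gradient. A few core subunits of complexes I, III, IV and ATP synthase are made inside mitochondria, while all other subunits are encoded in the nucleus on many chromosomes and must be made in matching amounts. Lactylation is an acyl mark formed from lactate, the end product of glycolysis when pyruvate does not enter mitochondria, and it is found mainly at active promoters.

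The lists held 22300 to 41783 peaks per library, with a median width of 287 to 366 bp in total cells and 580 to 735 bp in microglia. They covered 7.8 to 14.8 Mb and 15.3 to 36.3 Mb in the same order. Of 15 microglial markers, 13 to 15 had a peak at a gene end in each microglia library and 2 to 8 in each total cell library. Of 10 neuronal markers, 0 to 1 did in microglia and 1 to 2 in total cells, so few of these neuronal genes were marked even in total cells, and Snap25, Syt1 and Tubb3 had no such peak in any library. The counts in total cells and microglia were 1 to 3 and 2 to 3 of 7 for astrocytes, 0 to 1 and 2 to 3 of 8 for oligodendrocytes, 0 to 2 and 2 to 3 of 6 for vascular cells, and 0 to 1 and 0 to 2 of 8 for other leukocytes. The lists give no read counts, and depth is unknown. A gene without a listed peak is therefore a gene at which none was listed, not a gene shown to lack the mark.

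A gene-end peak was a peak overlapping the 2 kb on either side of the annotated start or end of a gene, in GRCm38, and a gene with such a peak is called marked in that library. Of 98 respiratory chain genes, 47 (48.0%) were marked in all 8 libraries, against a background of 17.7% of all protein-coding genes. At the other extreme, 9 members (9.18%) were marked in none, against 41.1% of all genes. The median member had a gene-end peak in 7 libraries and the median gene in 2. With subunits only, 41 of 87 (47.1%) had a peak in all 8 libraries and 8 had none. The full count was the most frequent among the members, and the others were spread over every lower count.

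**Figure D1:**
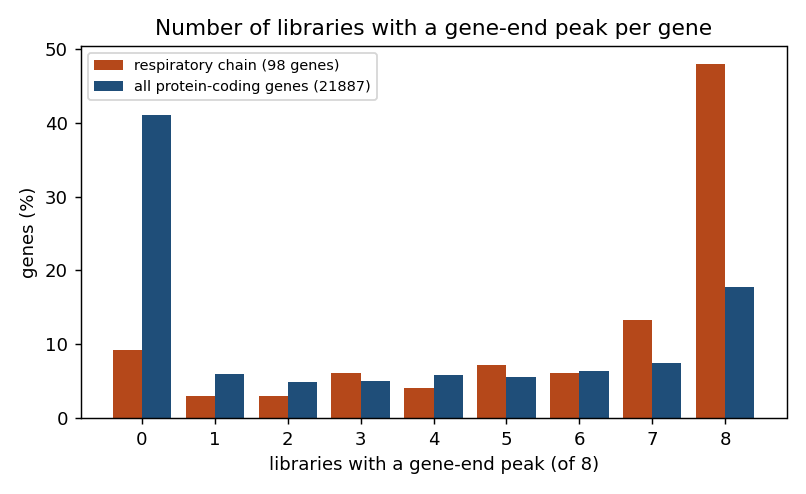
Number of the 8 libraries (x axis) in which a gene had a gene-end H4K12la peak, as a share of genes in percent (y axis), for the 98 respiratory chain genes and for all 21887 protein-coding genes. The tallest bar is at 8 libraries for the members (48.0%) and at 0 libraries for all genes (41.1%).

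Neighbouring genes share many of these windows. The windows of 70 members overlapped the window of another protein-coding gene, and 35 of them (50%) had a peak in all 8 libraries, against 24.3% of all genes in that class. For 28 members with a window of their own, the count was 12 (42.9%), against 12.8%. The members stood above all genes in both classes. RefSeq start sites were at hand for 79 members and 17492 genes, and with windows drawn around start sites alone 40 of 79 members (50.6%) had a peak in all 8 libraries, against 17.0% of genes. The start-site windows left 4 of the 79 members (5.06%; Uqcr11, Cox7b, Cox7b2 and Ndufb4b) without any peak, against 43.4% of genes.

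The peaks of the module lay mostly at start sites. In 58 members longer than 4 kb with a known start site, so that both ends could be told apart, 74.1% to 91.4% of the genes had a peak at the start in each library and 8.62% to 19% at the far end. The corresponding ranges over 14059 genes were 36.3% to 53.4% and 8.22% to 17.4%. The members thus exceeded other genes at their starts, while the ranges at far ends overlapped. The start was marked in all 8 libraries at 33 of the 58 members (56.9%; 19.8% of genes), and the far end at 1, Ndufv2 (1.72%; 1.95% of genes). That far-end peak lay on the start site of the neighbour Ankrd12 in every library.

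Base by base, a peak covered the start site itself at 60.7% ± 5.91 of member start sites in total cells and 69.1% ± 12.3 in microglia (SD, n = 4 libraries each). Over all genes the values were 20% ± 2.92 and 22.1% ± 4.58. At 500 bp upstream, member coverage was 5.36% ± 3.44 in total cells and 28.6% ± 10.5 in microglia, and at 1000 bp downstream it was 0.892% ± 0.595 and 3.57% ± 2.17. The member profile was therefore narrow, and wider in microglia than in total cells, as it was for all genes (4.9% ± 1.45 and 13.2% ± 4.32 at 500 bp upstream).

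**Figure D2:**
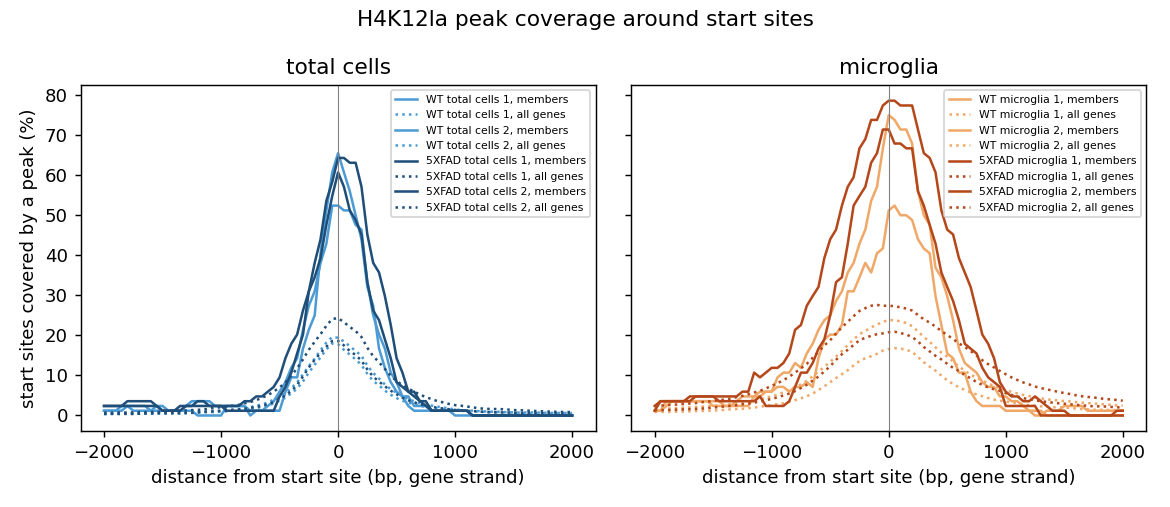
Share of start sites covered by a peak (y axis, percent) by distance from the start site in bp along the gene strand (x axis), for total cells (left) and microglia (right), 1 line per library, solid for members and dotted for all genes. Every solid line peaks near the start site above every dotted line, and the lines for microglia are broader.

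Some members show what such promoters look like in sequence. They were chosen as the highest-ranking members with a peak in all 8 libraries that hold a match to a given motif upstream of the start site and whose upstream bases touch no annotated gene. No member met this for the YY1 motif. Capitals mark the match, and each run gives the 250 bases before the RefSeq start site, on the gene's strand, in GRCm38.p6. Atp5g2, a gene of the membrane ring (subunit c) of ATP synthase, lies on the minus strand at chr15:102671048-102671297, with 2 overlapping NRF1 matches at -42 to -33 from the start site. Atp5e, the epsilon subunit of the ATP synthase stalk, lies on the minus strand at chr2:174464102-174464351, with an ETS core (CCGGAAG on the other strand) at -102 to -96. Ndufb2, an accessory subunit of complex I, lies on the plus strand at chr6:39592315-39592564, with an ERR half-site at -181 to -175.
Atp5g2: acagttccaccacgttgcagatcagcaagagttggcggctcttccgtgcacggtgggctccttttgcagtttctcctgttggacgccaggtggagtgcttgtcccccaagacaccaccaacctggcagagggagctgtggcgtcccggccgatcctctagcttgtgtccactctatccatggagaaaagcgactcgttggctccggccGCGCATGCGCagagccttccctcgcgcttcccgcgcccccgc
Atp5e: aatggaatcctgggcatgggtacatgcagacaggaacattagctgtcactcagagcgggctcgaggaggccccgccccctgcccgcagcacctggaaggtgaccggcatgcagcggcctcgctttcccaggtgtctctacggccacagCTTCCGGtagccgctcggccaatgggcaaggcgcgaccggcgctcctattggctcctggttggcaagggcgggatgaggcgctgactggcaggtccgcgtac
Ndufb2: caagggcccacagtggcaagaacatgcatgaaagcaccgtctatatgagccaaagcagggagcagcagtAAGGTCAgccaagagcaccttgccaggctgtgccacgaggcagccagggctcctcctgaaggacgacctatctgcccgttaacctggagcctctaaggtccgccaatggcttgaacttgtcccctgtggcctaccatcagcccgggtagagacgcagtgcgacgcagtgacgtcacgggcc
A peak overlapped these 250 bases in 8 libraries at Atp5g2, 7 at Atp5e and 8 at Ndufb2. With the first 50 transcribed bases added, the 300 bases held 20, 22 and 14 CpG dinucleotides at Atp5g2, Atp5e and Ndufb2.

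Motifs of factors known to drive respiratory genes were counted on both strands in the 300 bases from 250 before to 50 after the start site. The NRF1 motif GCGCANGCG was in 23 of 79 members (29.1%) and 9.63% of 17492 genes. The ETS core CCGGAAG, bound by the GABP factor among others, was in 19 members (24.1%) and 12.9% of genes. The ERR half-site AAGGTCA, bound by estrogen-related receptors, was in 8 members (10.1%; 4.73% of genes), and the YY1 motif AANATGGCG in 11 members (13.9%; 3.64% of genes). Any of the 4 motifs was in 45 members (57.0%) and 26.5% of genes, and a promoter could hold several of them. A gene-end peak in all 8 libraries was found at 24 of the 45 members with a motif and at 41 of all 79, against 1285 of 4638 genes with a motif (27.7%) and 3169 of all 17492. A match describes letters in this window and not binding.

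Member promoters were also richer in CpG, with a median of 20 CpG dinucleotides in these 300 bases against 15 over all genes. Of 56 members above that median of all genes, 28 (50%) had a peak in all 8 libraries, against 26.9% of genes above it. Of 23 members at or below it, 13 (56.5%) had one, against 10% of genes. The members' share was above that of other genes in both CpG classes.

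Among all members, the strongest peaks by the authors' score, given here as a percentile among the peaks of the same library, were at genes of complexes I, II and III, ATP synthase and cytochrome c. Uqcrb (gene 67530, chromosome 13, 66900576 to 66905350), a small subunit of complex III, led with 98.8 ± 1.11 (SD, n = 8). In total cells Uqcrb reached 98.8 and 99.5 in WT and 99.8 and 99.8 in 5XFAD mice, and in microglia 96.4 and 98.9 in WT and 98.5 and 98.5 in 5XFAD mice. All 8 libraries thus placed it in the top few percent of their peaks, and the peak also overlapped the start of its neighbour Gm10767. Next were the complex I accessory subunit genes Ndufb1 (98.1 ± 0.837) and Ndufb2 (98 ± 2.04), Cycs, which encodes the electron carrier cytochrome c (97.9 ± 0.965), and Atp5e (97.5 ± 1.27; SD, n = 8 for each). The other 5 of the 10 highest were Uqcrc2, a core protein of complex III (96.6 ± 3.2), the assembly factor gene Ndufaf1 (93.7 ± 6.01), Uqcrh, the hinge protein of complex III (93.4 ± 6.78), Sdhd, a membrane anchor of complex II (91.4 ± 9.13), and Ndufa5, of the peripheral arm of complex I (89.6 ± 12.3; SD, n = 8 for each). At Uqcrh, whose window overlaps that of Lrrc41, the midpoint of the highest-scoring peak lay at -1900 to -1391 bp from the start site in 7 libraries and at -110 bp in total cells 5XFAD 2. The widest spreads among the 10 belonged to Ndufa5, which fell to 61.0 in microglia WT 1, and Sdhd, at 70.3 in the same library.

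**Figure D3:**
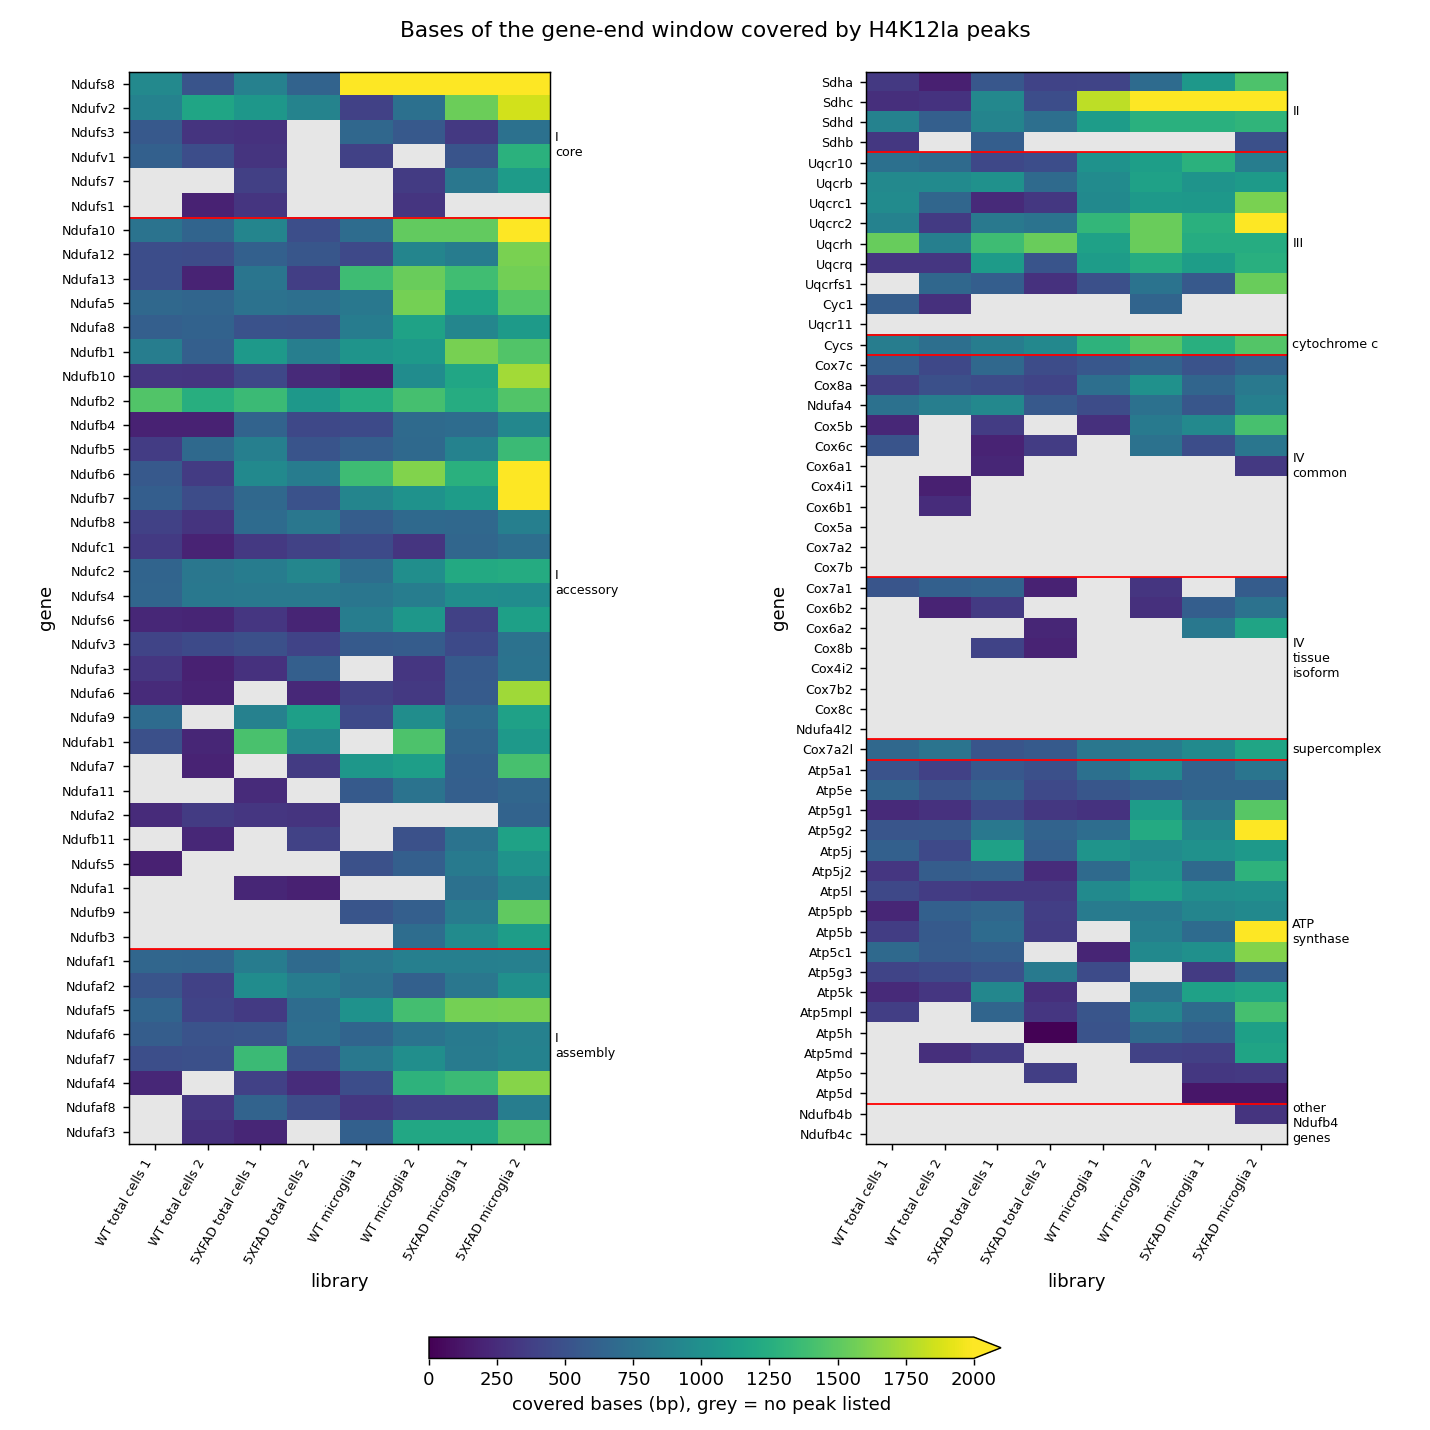
Bases of the gene-end window covered by peaks (colour, bp, values above 2000 in the top colour, grey where no peak was listed) for the members (rows, grouped by complex, 1 of the 98 not shown) in each of the 8 libraries (columns). Most rows of the complex I accessory subunits and of complexes II and III are filled in every library, as are 8 of 17 rows of ATP synthase. The rows of the complex IV tissue isoforms are mostly grey.

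In complex I, the core subunits include those that hold the flavin and the iron-sulfur clusters, and the accessory subunits surround them. Of 7 nuclear core genes, 2 (Ndufv2 and Ndufs8) were marked in all 8 libraries, and the others in 3 to 7, from Ndufs1 in 3 to Ndufs3 in 7. The start site of Ndufv2 itself was marked in 6 libraries. In both WT microglia libraries the only peak in its window was the one at the start site of Ankrd12. Of 30 accessory subunit genes, 18 (60%) were marked in all 8 and none was unmarked everywhere. The 18 were Ndufa5, Ndufa8, Ndufa10, Ndufa12, Ndufa13, Ndufb1, Ndufb2, Ndufb4, Ndufb5, Ndufb6, Ndufb7, Ndufb8, Ndufb10, Ndufc1, Ndufc2, Ndufs4, Ndufs6 and Ndufv3. The other 12 were marked in 3 to 7 libraries, from Ndufb3 in 3 to Ndufa3, Ndufa6, Ndufa9 and Ndufab1, the mitochondrial acyl carrier protein, in 7. With start-site windows Ndufab1 was marked in 4 total cell libraries and 1 microglia library, and Ndufb10 in 4 and 2. Ndufb3 had no listed peak in total cells and 0, 718, 961 and 1114 covered bases in microglia, and its peaks lay over both its own start site and that of the adjacent gene Fam126b. With start-site windows the counts were 1 of 5 core and 17 of 28 accessory genes, and the difference between these classes was not tested.

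Ndufb2 (gene 68198, chromosome 6, 39592565 to 39599843) had a wide peak at its start site in every library. Peaks covered 1456, 1256, 1363 and 1064 bases of its window in total cells (WT 1 and 2, then 5XFAD 1 and 2) and 1232, 1414, 1235 and 1455 in microglia. The preparations overlapped, and the main peak spanned the start site and overlapped the promoter printed above in every library. In the 4 total cell libraries a smaller peak lay 394 to 640 bp beyond the other end of the gene, where no microglia library listed one.

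Ndufs8 (gene 225887, chromosome 19, 3908863 to 3912774), an iron-sulfur subunit, had 941, 517, 877 and 636 covered bases in the total cell libraries (WT 1 and 2, then 5XFAD 1 and 2). In microglia it had 2069, 2605, 2597 and 3046 in the same order, so that every microglia library was above every total cell library. Its window also takes in the start site of Tcirg1, a proton pump subunit, and part of Aldh3b1. Peaks in the Tcirg1 part of the window were listed in all 8 libraries, and peaks of 927 to 1894 bp overlapped Aldh3b1 in microglia, so the covered bases are not those of the Ndufs8 start site alone.

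The complex I assembly factors, which help to join the modules of the enzyme and are not part of it, were marked in most libraries. Ndufaf1, Ndufaf2, Ndufaf5, Ndufaf6 and Ndufaf7 were marked in all 8 libraries, Ndufaf4 and Ndufaf8 in 7 and Ndufaf3 in 6, and all 8 genes were marked in every microglia library. Ndufb4 itself had a peak in all 8 libraries, whereas Ndufb4b had one in 1 library (microglia 5XFAD 2) and Ndufb4c in none, with the nearest peak of any library 48.1 kb away.

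Complex II, the succinate dehydrogenase that also serves the citric acid cycle, had peaks in all 8 libraries at Sdha, Sdhc and Sdhd but in 3 at Sdhb, the iron-sulfur subunit. Sdhb (gene 67680, chromosome 4, 140961271 to 140979198) had a peak over or within 108 bp of its start site in total cells 5XFAD 1 and microglia 5XFAD 2, and total cells WT 1 listed a peak 948 bp from the far end. All 4 microglia libraries listed peaks deep in the gene, 2731 to 3122 bp and 9832 to 10030 bp from the start site. Total cells listed peaks there too, at 3305 and 10224 bp in 5XFAD 1 and at 10187 bp in 5XFAD 2, and with the whole gene counted Sdhb had a peak in 7 libraries. Sdhc (gene 66052, chromosome 1, 171129157 to 171150640), a membrane anchor, had 273, 290, 937 and 475 covered bases in total cells and 1799, 2895, 2150 and 3003 in microglia, with no overlap between the preparations. Peaks lay at both ends of Sdhc in microglia, and those at its lower-coordinate end were the widest, at 1434 to 1998 bp. Total cells of WT mice listed no peak at that end, and those of 5XFAD mice listed peaks of 221 to 316 bp. The strand and start site of Sdhc were not among the reference data used here.

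Complex III had peaks in all 8 libraries at Uqcr10, Uqcrb, Uqcrc1, Uqcrc2, Uqcrh and Uqcrq, in 7 at Uqcrfs1, the Rieske iron-sulfur protein, in 3 at Cyc1, and in none at Uqcr11. Uqcrh (gene 66576, chromosome 4, 116066965 to 116075070) had 1538, 866, 1375 and 1545 covered bases in total cells and 1147, 1546, 1242 and 1235 in microglia, and the preparations overlapped. Cyc1, the cytochrome c1 that hands electrons to cytochrome c, had 586 and 276 in total cells of WT mice, none in those of 5XFAD mice, and 648 in microglia WT 2 alone among microglia. For Uqcr11 the nearest peak of any library was 2.77 kb away, outside the window. Cycs (gene 13063, chromosome 6, 50562563 to 50566569) had 846, 733, 849 and 931 in total cells and 1292, 1474, 1259 and 1466 in microglia. No other protein-coding gene has a window that overlaps that of Cycs, and the preparations did not overlap there.

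Complex IV passes electrons from cytochrome c to oxygen, and several of its subunits have isoforms. Of 11 subunits with the common form, Cox7c, Cox8a and Ndufa4 (a complex IV subunit despite its name) were marked in all 8 libraries, Cox5b and Cox6c in 6, Cox6a1 in 2, Cox4i1 and Cox6b1 in 1, and Cox5a, Cox7a2 and Cox7b in none. Among these 11 common genes, 27.3% were marked in all 8 libraries and 27.3% in none, against 17.7% and 41.1% of all genes. None of the 8 isoforms known from particular tissues, conditions or germ cells was marked in all 8 libraries (17.7% of all genes). In no library were 4 of these 8 isoforms marked (50%), near the 41.1% of all genes. Cox7a1 was marked in 6 libraries, Cox6b2 in 5, Cox6a2 in 3, Cox8b in 2, and Cox4i2, Cox7b2, Cox8c and Ndufa4l2 in none. The common and tissue forms stood side by side as follows: Cox8a in 8 libraries against Cox8b in 2 and Cox8c in 0, Ndufa4 in 8 against Ndufa4l2 in 0, and Cox4i1 in 1 against Cox4i2 in 0. By gene-end windows the tissue form was marked in more libraries in 3 families. These were Cox7a2 in 0 against Cox7a1 in 6, Cox6b1 in 1 against Cox6b2 in 5, and Cox6a1 in 2 against Cox6a2 in 3. Cox7b and Cox7b2 were both in 0. With start-site windows the order of the Cox7a pair was reversed, with Cox7a2 in 8 and Cox7a1 in 4. Cox6b1 and Cox6b2 stayed in 1 and 5, and Cox6a2 had no known start site. The Cox7a1 and Cox6b2 windows overlap those of Capns1 and Fam71e2, and the Cox6a2 window that of Itgad, an integrin gene. The nearest peak to Cox7b2, a testis isoform, was 109 kb away.

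Of the common subunits of complex IV without a gene-end peak, Cox7a2 and Cox5a have their start sites well inside the annotated gene, so that the gene-end window missed them. The start site of Cox7a2 (gene 12866, chromosome 9, 79755241 to 79771422) lies 4612 bp from the nearer gene end. Peaks covered 562, 570, 300 and 456 bases of the 2 kb on either side of it in total cells and 417, 658, 1437 and 864 in microglia, so that all 8 libraries marked it. The start site of Cox5a (gene 12858, chromosome 9, 57517328 to 57532427) lies 3904 bp inside, and covered bases there were 0, 394, 520 and 372 in total cells and 0, 367, 0 and 0 in microglia. It was marked in 3 total cell libraries and 1 microglia library. Such inner start sites were found for 3 of 79 members (3.8%), the other being Atp5d, and for 6.91% of all genes. With start-site windows, 4 of 9 common complex IV genes (44.4%) had a peak in all 8 libraries and 1, Cox7b, in none, beside 7 of 15 ATP synthase genes (46.7%) in all 8. Differences between complexes were not tested. Counting the whole gene with 2 kb on each side, 49 members had a peak in all 8 libraries and 7 in none, against 26.7% and 34.0% of all genes.

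ATP synthase genes had gene-end peaks in all 8 libraries at 8 of 17: the catalytic head gene Atp5a1, the subunit c genes Atp5g1 and Atp5g2, and Atp5e, Atp5j, Atp5j2, Atp5l and Atp5pb. A further 5, including the catalytic subunit gene Atp5b, the rotor gene Atp5c1 and the third subunit c gene Atp5g3, had one in 7 libraries, and Atp5h, Atp5md, Atp5o and Atp5d in 5, 5, 3 and 2. The library that lacked a peak among those in 7 was not always the same: total cells 5XFAD 2 for Atp5c1, total cells WT 2 for Atp5mpl, microglia WT 1 for Atp5b and Atp5k, and microglia WT 2 for Atp5g3. Atp5l (gene 27425, chromosome 9, 44913248 to 44920742), of the membrane part, had 430, 353, 334 and 334 covered bases in total cells and 954, 1127, 992 and 1002 in microglia, with no overlap.

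The share of members with a gene-end peak overlapped between the preparations. In total cells it was 67.3% and 70.4% (WT 1 and 2) and 75.5% and 69.4% (5XFAD 1 and 2). In microglia it was 66.3% and 77.6% (WT) and 80.6% and 85.7% (5XFAD). The shares of all genes were 36.5%, 34.2%, 41.8%, 34.7%, 33.3%, 43.5%, 40.9% and 49.0% in the same order. The excess of members over all genes was 30.9 to 36.2 percentage points in total cells and 33.0 to 39.7 in microglia, and these ranges overlap. With the 22300 highest-scoring peaks of every list, the member shares ran from 66.3% to 71.4%, with 66.3% to 69.4% in total cells and 66.3% to 71.4% in microglia, and the excess from 31.7 to 36.4 points.

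**Figure D4:**
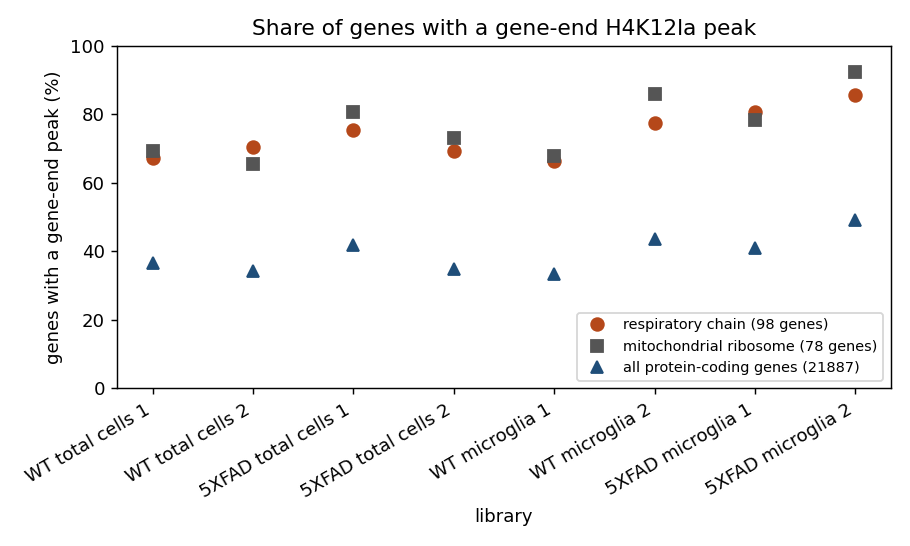
Share of genes with a gene-end peak (y axis, percent) in each library (x axis) for the 98 respiratory chain genes, 78 mitochondrial ribosomal protein genes and all 21887 protein-coding genes. In every library the respiratory chain and mitochondrial ribosome points sit above the point for all genes, and the respiratory chain points run from 66.3% to 85.7%.

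Gene by gene, 2 members, among them Ndufb9, were marked in every microglia library and unmarked in all total cell libraries, against a background of 1.5% of all genes, and 0 members had the opposite pattern (background 0.649%). These are shares near the background. In the exact two-sided permutation test over the 70 arrangements of 8 libraries, whose smallest p is 0.0286, 471 genes and these 2 members had an unadjusted p under 0.05, and 0 genes passed after Benjamini-Hochberg adjustment over all genes. Without microglia 5XFAD 2, 1 member, Ndufa2, had a peak in all 4 total cell libraries and in no remaining microglia library (background 1.0%). Ndufa2, an accessory subunit of complex I, had 249, 347, 319 and 299 covered bases in total cells and 0, 0, 0 and 636 in microglia, so that microglia 5XFAD 2 stood apart from the other microglia there.

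Ndufb9 (gene 66218, chromosome 15, 58933801 to 58939516), a membrane-arm subunit, had 0 in total cells and 526, 609, 831 and 1513 in microglia. Its peaks lay 648, 357, 23 and 0 bp from its own lower-coordinate end (WT 1 and 2, then 5XFAD 1 and 2). The same peaks lay over or within 603 bp of the higher-coordinate end of the close neighbour Tatdn1. A further peak in 5XFAD 2 lay 804 bp beyond the other end of Ndufb9.

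The extent of the peaks separated the preparations at more members. Covered bases were higher in every microglia library than in every total cell library at 29 of 98 members (29.6%), against a background of 13.1% of all genes, and lower at 0 (background 0.918%). Leaving out microglia WT 1, the shortest microglia list, gave 50 members against a background of 22.5%, and leaving out microglia 5XFAD 2 gave 1 member, Ndufa2, that was lower (background 1.47%). Members with a peak in all 8 libraries can be set against genes with the same record: 20 of 47 (42.6%) were higher in microglia, against 32.4%, and 0 were lower, against 0.439%. In the exact two-sided permutation test, 3069 genes and these 29 members had an unadjusted p under 0.05, and 0 genes passed after adjustment over all genes, the smallest adjusted p being 0.204.

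The 29 members came from every complex. They included 11 accessory subunits of complex I, such as Ndufa5, Ndufa8, Ndufa13, Ndufb6, Ndufb7 and Ndufs6, the core gene Ndufs8, the assembly factor genes Ndufaf3, Ndufaf4 and Ndufaf5, Sdhc and Sdhd, Uqcr10, Uqcrc2 and Uqcrq, Cycs, Cox8a, Cox7a2l, and Atp5a1, Atp5h, Atp5j2, Atp5l and Atp5pb. Most of the 29 share their windows with neighbours. Among the 28 members whose windows overlap no other, 5 were separated in this way (background 9.18%). At Atp5h, whose window overlaps those of Kctd2 and Mrpl58, midpoints of the highest-scoring peaks lay 6101 to 6494 bp from the start site. A start-site peak was listed there in 1 library. Ndufa13, a subunit also known as GRIM-19, had 469, 202, 779 and 372 covered bases in total cells and 1382, 1540, 1388 and 1573 in microglia. Atp5pb, of the peripheral stalk, had 465 ± 210 in total cells and 879 ± 61.7 in microglia (SD, n = 4 each). In contrast, Uqcrb, Uqcrh, Ndufb2 and Ndufaf1, all among the 10 highest by score, overlapped between the preparations.

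The width of the peaks moved with this difference in all genes. The median width of member peaks was 779 ± 164 bp for microglia libraries against 405 ± 44.5 bp for total cells (SD, n = 4 each, exact permutation p = 0.0286, two-sided, the smallest possible). For all gene-end peaks it was 686 ± 89.6 and 380 ± 44.6 bp (exact permutation p = 0.0286, n = 4 each). Its part in the member counts was not tested, and the preparation and its peak widths cannot be told apart in this design.

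**Figure D5:**
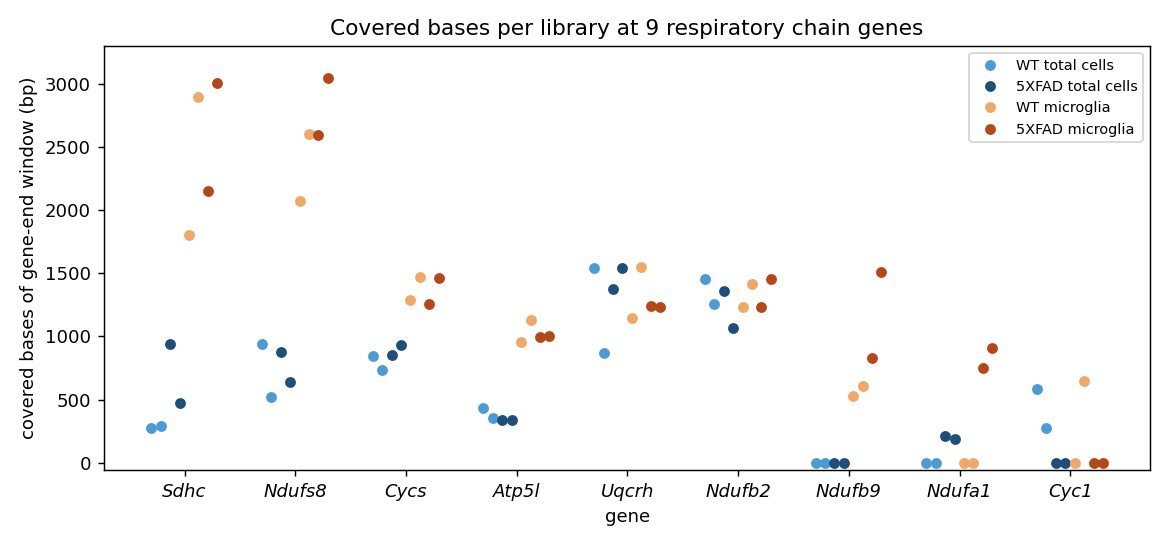
Bases of the gene-end window covered by peaks (y axis, bp) at 9 members (x axis), 1 point per library, coloured by group. At Sdhc, Ndufs8, Cycs and Atp5l every microglia point lies above every total cell point, at Uqcrh and Ndufb2 the preparations overlap, at Ndufb9 all total cell points are at 0, and at Ndufa1 all WT points are at 0.

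Between genotypes, few members had a one-sided pattern. In microglia, 4 members (Atp5d, Atp5o, Cox6a2 and Ndufa1) were marked in the 5XFAD pair and unmarked in the WT pair, against a background of 3.19% of all genes, and 0 had the reverse (background 0.58%). In total cells, 2 members (Cox8b and Ndufa1) were marked in the 5XFAD pair alone (background 3.11%) and 1, Cyc1, had the reverse (background 1.64%). With these windows and all listed peaks, the counts are near the background. With a score of at least 50, the microglia 5XFAD count was 8 (background 4.05%) and the total cell counts were 5 for 5XFAD (background 3.03%) and 3 for WT (background 1.28%). With 2 libraries against 2 the smallest exact permutation p is 0.33, and with genotypes exchanged only within preparations it is 0.0556, so neither of these tests could pass 0.05.

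These counts turned on individual libraries. The microglia 5XFAD count of 4 was 14 without WT 2 (background 10.1%) and 8 without 5XFAD 1 (background 7.27%), and the reverse count was 2, Cyc1 and Ndufs1, without WT 1 (background 2.32%). In total cells the 5XFAD count of 2 was 6 without WT 1, 4 without WT 2, 5 without 5XFAD 1 and 5 without 5XFAD 2 (background 4.59% to 7.37%). The WT count of 1 was 3, 2, 4 and 2 in the same order (background 2.44% to 4.75%). WT 1 and 5XFAD 1 had the shorter list of each microglia pair.

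Ndufa1 (gene 54405, chromosome X, 37187588 to 37191238), a small accessory subunit of complex I encoded on the X chromosome, was the only member marked in all 4 5XFAD libraries and in no WT library, a pattern found at 38 genes (background 0.174%), while 0 members had the reverse (background 0.0274%). Covered bases were 0 in all 4 WT libraries, 214 and 184 in total cells and 748 and 906 in microglia of 5XFAD mice. The genotypes did not overlap in either preparation. The peaks lay on the Ndufa1 start site or, in microglia 5XFAD 1, 43 bp from it, and the gene Rnf113a1 begins at the same place. Their scores were low within their lists, with percentiles of 14.1 and 7.46 in total cells and 14.1 and 37.6 in microglia. The scores themselves were 34 and 29 in total cells and 42 and 76 in microglia (5XFAD 1, then 5XFAD 2). At a score of at least 50, only the peak of microglia 5XFAD 2 is kept, so the pattern is lost at that limit. The exact permutation p of genotype within preparations was 0.0556 at the smallest, and 0 genes passed after adjustment.

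The other 5XFAD-only members had gene-end peaks away from their own start sites or without a known one. At Atp5d, the delta subunit gene, the gene-end peaks lay 1879 bp beyond the gene and 115 and 24 bp from the start site of Midn. With start-site windows, Atp5d also had a peak in 1 microglia 5XFAD library. At Atp5o, of the peripheral stalk, they lay 1379 and 1350 bp from the start site. At Cox8b they lay 1600 and 1800 bp from the start site in total cells. Cox6a2 had 0 covered bases in both WT microglia libraries and 800 and 1165 in the 5XFAD ones, with peaks at both ends of this short gene. Cyc1 differed from these in that its peaks overlapped its lower-coordinate end in every library that listed one, with score percentiles of 82.6 and 96.4 in WT total cells and 43.8 in microglia WT 2.

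Other mitochondrial gene groups give the context of these shares, beside 17.7% of all genes marked in all 8 libraries and 41.1% in none. Of 78 mitochondrial ribosomal protein genes, 35 (44.9%) were marked in all 8 libraries and 3 in none. Of 18 cytochrome c oxidase assembly genes, 11 (61.1%) had one in all 8, among them Surf1, Cox10, Cox15 and Cox17, and 0 had none. The counts in all 8 were 2 of 6 for complex III assembly, 2 of 4 for complex II assembly, 2 of 3 for ATP synthase assembly and 4 of 14 for the citric acid cycle genes (Fh1, Ogdh, Dld and Idh3a). Of 90 cytosolic ribosomal protein genes, 21 (23.3%) had one in all 8. Covered bases were higher in every microglia library at 25 mitochondrial ribosomal genes (32.1%) and 30 cytosolic ribosomal genes (33.3%), shares close to the 29.6% of the respiratory chain. Over all genes the share was 13.1%.

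Of 13 regulators of mitochondrial genes, 4 (30.8%) were marked in all 8 libraries, against 17.7% of all genes. These were Tfam, which packages and transcribes mitochondrial DNA, Tfb1m, Gabpa, a subunit of GABP, and Esrra, an estrogen-related receptor. Ppargc1a, the coactivator PGC-1 alpha, Esrrg and Polrmt, the mitochondrial RNA polymerase, had no peak in any library (23.1%, against 41.1% of all genes). The list held a peak at 6 to 9 genes per total cell library and 7 to 8 per microglia library, ranges that overlap.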

How the data were processed

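H4K12la CUT&Tag peak lists of 8 libraries (4 groups of 2, from the sample titles) were analysed. Reads were handled with fastp 0.19.6, Bowtie2 and deepTools on the GRCm38 build, per the submitters' processing notes. How peaks were called, and against which control if any, is not given in the sources used here. Files deposited by the authors hold 1 list per library, with chromosome, start, end and a whole-number score of unstated unit, whose lowest value was 20 in every list, so that weaker peaks are not seen. The score was used only to rank or filter peaks within a list. Without read counts, depth and its error are unknown, and longer lists mark more genes.

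Genes came from the RefSeq table of GRCm38.p6. A gene-end peak overlapped by 1 base or more the 2 kb on either side of either gene end. Covered bases were the bases of that window under peaks, and widths were those of the peaks in it. Start sites, strands and promoter sequences came from the RefSeq promoter table of the same build, which held 79 of 98 members and 17492 genes. The other members, among them Sdhc and Uqcrb, have no start-site value here.

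Presence and covered bases were tested per gene by exact two-sided permutation (70 arrangements, or 36 within preparations or replicate numbers) with Benjamini-Hochberg adjustment over 21887 genes and a threshold of 0.05. Member counts were read against the share of all genes with the same pattern, with no test of the list. The members and lists were chosen with earlier results of these data known. Genes were named if they had a peak in all 8 libraries or none, a pattern of one preparation or genotype, a place among the 10 highest mean score percentiles, or were complex IV isoforms. The other names, among them Sdhb, Ndufa2, Ndufb3, Ndufs1 and the 29 members with separated covered bases, were chosen after their values were seen, to complete each complex. The values of 1 member are not reported here, and it is kept in the counts. Ribosomal protein lists were made by symbol prefix, leaving out 11 names such as the ribosomal S6 kinases. Alternatives were other windows, score limits, list lengths, members and left-out libraries. Overlap code was tested on simulated data. At most 193 intervals were identical in 2 lists, and all 8 libraries were kept as separate samples. Python 3.11.15, NumPy 2.4.6, pandas 2.3.3 and Matplotlib 3.10.9 were used.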

Additional observations from a re-analysis of the deposited data

Results flagged for a closer look

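The respiratory chain also has subunits encoded in mitochondrial DNA, which carries no histones, and every list held peaks there, in a sequence outside the comparisons of nuclear genes. Total cells of WT mice had 6 and 6 such peaks, total cells of 5XFAD mice 3 and 4, and the microglia libraries 3, 3, 3 and 3. They covered 9715 to 11224 bp of the mitochondrial chromosome, touched 7 of its 13 coding genes in each library and included peaks at the top of each list by score. No control library was at hand to compare with.

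Pseudogenes of respiratory chain genes were not members. Of 19 such pseudogenes, 5 had a gene-end peak in at least 1 library and 14 in none. Atp5l2-ps had one in all 8 libraries, and its window overlaps those of the coding genes Cwc25 and 1700001P01Rik. Atp5pb-ps had one in 2 libraries, and Uqcrh-ps1, Ndufs5-ps and Cox7c-ps1 in 1 each.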

How the results depend on the processing

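The count of 47 of 98 members with a peak in all 8 libraries was 45 (background 15.3%) with windows of 1 kb and 54 (background 22.5%) with windows of 5 kb. It was 34 (background 11.6%) with a score of at least 50 and 42 (background 15.5%) with equal list lengths. Peak midpoints gave 46 (background 17.0%) and the whole gene 49 (background 26.7%). Start-site windows gave 40 of 79 (background 17.0%), and subunits only 41 of 87 (background 17.7%). The count was 29 (background 9.01%) with the higher-scoring 50% of peaks and 12 of 28 (background 12.8%) where windows overlap no other. Without any 1 library it ranged from 47 to 51 (background 17.7% to 19.7%). The count of 29 members with more covered bases in every microglia library was 18 (background 7.21%) from the higher-scoring 50% of peaks. Windows that overlap no other gave 5 of 28 members (background 9.18%). Leaving out any 1 library gave 29 to 50 members, while the background ran from 13.2% to 22.5%. The count with fewer was 1 with windows of 5 kb (background 0.896%) and 1 with the higher-scoring 50% of peaks (background 1.18%). Without any 1 library it ranged from 0 to 1 (background 0.973% to 1.63%).

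Members with peaks in all 4 microglia and no total cell library numbered 1 with windows of 5 kb (background 1.28%), a score of at least 50 (background 2.19%) or equal list lengths (background 1.18%). They numbered 0 with start-site windows (background 1.42%), where Ndufb9 has no start site. They also numbered 0 with the higher-scoring 50% of peaks (background 1.1%) or windows that overlap no other (background 1.18%). The opposite pattern was found at 1 with windows of 5 kb (background 0.608%) and with the higher-scoring 50% of peaks (background 0.918%). It was found at 0 to 1 without any 1 library (background 0.681% to 1.06%). In microglia, the 5XFAD-only count was 8 with a score of at least 50 (background 4.05%) and 7 with the higher-scoring 50% of peaks (background 3.53%). It was 2 with equal list lengths (background 2.25%) and 1 of 28 with windows that overlap no other (background 2.42%). Without any 1 library it was 4 to 14 (background 3.64% to 10.1%). The WT-only count was 1 with the higher-scoring 50% of peaks (background 0.722%) and 1 with equal list lengths (background 1.78%). Without any 1 library it was 0 to 2 (background 0.704% to 2.61%). In total cells, the 5XFAD-only count was 1 with windows of 1 kb (background 2.88%), windows of 5 kb (background 3.35%) or equal list lengths (background 2.59%). It was 5 with a score of at least 50 (background 3.03%) and 5 with the higher-scoring 50% of peaks (background 2.77%). It was 0 with windows that overlap no other (background 2.38%) and 4 to 6 without any 1 library (background 4.59% to 7.37%). The WT-only count was 0 with windows of 5 kb (background 1.6%) or windows that overlap no other (background 1.22%). It was 3 with a score of at least 50 (background 1.28%) and 5 with the higher-scoring 50% of peaks (background 1.4%). Without any 1 library it was 2 to 4 (background 2.44% to 4.75%).

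Mean shares of members (WT and 5XFAD total cells, WT and 5XFAD microglia) were 68.9%, 72.4%, 71.9% and 83.2%, against 35.3%, 38.3%, 38.4% and 44.9% of all genes. With windows of 5 kb they were 77.0%, 81.1%, 78.1% and 91.3% (all genes 42.2%, 45.4%, 45.2% and 51.8%). With a score of at least 50 they were 56.1%, 61.7%, 61.7% and 78.1% (all genes 25.6%, 29.4%, 31.3% and 40.2%). With the higher-scoring 50% of peaks they were 56.1%, 59.2%, 52.6% and 62.8% (all genes 24.9%, 27.6%, 23.6% and 29.4%). With start-site windows total cells were at 74.1% and 77.2% (all genes 34.1% and 36.8%). With windows that overlap no other, the 5XFAD microglia were at 75% (all genes 32.4%) and total cells at 62.5% and 66.1% (all genes 26.7% and 28.9%). With equal list lengths the 5XFAD microglia were at 70.4% (all genes 34.6%). Stricter score limits, single windows and shorter lists leave fewer peaks or genes by construction, and the cause of other shifts was not tested.

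The labels share replicate numbers between groups but do not say what the numbers mean. Correlations of same-numbered deviations in covered bases ran from -0.252 to 0.406 over the 6 pairs of groups, so the numbers were not taken as pairs. With the replicate number as a block, 0 genes passed the adjusted test, as without it, and the smallest p was 0.0556, which cannot pass. The whole-gene window was chosen after seeing the data. Depth is unknown, and whether absent peaks reflect fewer reads or less of the mark cannot be told apart.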
